A study of Mus musculus with 380 samples.

Results

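Tyr, Tyrp1, Dct, Pmel and Mlana are the pigment genes by which a melanoma is usually recognised, and the values below give their levels in T cells sorted from such a tumour. These 5 genes were taken by name from 23420 gene symbols measured in 380 libraries, and all 5 were in the matrix. Tyr encodes tyrosinase, the rate-limiting enzyme of melanin synthesis. Tyrp1 and Dct encode its relatives, which act later in the same pathway. Pmel encodes the protein that forms the fibrils on which melanin is laid down in the melanosome (gp100), and Mlana encodes a small melanosome membrane protein also known as MART-1. Pigment cells switch these genes on through the transcription factor MITF. The proteins are known melanoma antigens that T cells can recognise.

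The libraries were made with Smart-seq2, a plate-based protocol that covers whole transcripts, from T cells of C57BL/6 mice, sorted out of tumours of the mouse melanoma line B16F10. The series asks which genes interleukin-27 (IL-27) induces in such T cells. The 4 groups were CD8 cells labelled IL27raKO, for knockout of a chain of the IL-27 receptor (code KO4), wild-type (WT) CD8 cells (code WT4), CD4 cells labelled IL27raKO and WT CD4 cells. Each group was 1 plate with 94 single cells and 1 population well made from many cells. No age, sex or further animal is given, WT CD4 titles carry p2 where the others carry p1, and the protocol text speaks of CD8+ cells although the titles of both CD4 plates say CD4. Genotype, plate and animal cannot be told apart, so no test between groups was possible. Il27ra was still detected in the wells labelled IL27raKO, at 85.3 FPKM against 157.02 FPKM in WT for CD8 and at 72.7 FPKM against 243.4 FPKM in WT for CD4, so these groups are called KO-labelled.

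A cell was kept when at least 1000 genes lay above FPKM 1 (sequenced fragments per kilobase of a transcript, relative to all fragments of the library). This kept 80 KO-labelled CD8, 72 WT CD8, 73 KO-labelled CD4 and 79 WT CD4 cells of the 94 on each plate. The medians of genes detected at that level were 2508 in KO-labelled CD8, 3168 in WT CD8, 2218 in KO-labelled CD4 and 2045 in WT CD4 cells. Depth was estimated from the spacing of low values at a median of 505500 reads per kept cell, and the wells at 471649 to 821188 reads. These depths are approximate, because the authors' scaling between libraries could not be undone. The lineage labels held in most cells: Cd8a was above FPKM 1 in 72 KO-labelled CD8 and 61 WT CD8 cells, and Cd4 in 62 KO-labelled CD4 and 71 WT CD4 cells. Shares carry 95% Clopper-Pearson intervals (exact), and these account for counting error alone.

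The promoters are shown because MITF acts through a short motif, the M-box, whose core is CATGTG. RefSeq (GRCm38.p6) gave promoter sequences for 3 of the 5 genes. Each line below is the 250 bases before the RefSeq start of the gene, read 5′ to 3′ on the strand of the gene, with CATGTG or its reverse complement CACATG in capitals. They lie at chr7:87493513-87493762 (minus strand) for Tyr, chr4:80833963-80834212 (plus strand) for Tyrp1 and chr14:118052247-118052496 (minus strand) for Dct.
Tyr: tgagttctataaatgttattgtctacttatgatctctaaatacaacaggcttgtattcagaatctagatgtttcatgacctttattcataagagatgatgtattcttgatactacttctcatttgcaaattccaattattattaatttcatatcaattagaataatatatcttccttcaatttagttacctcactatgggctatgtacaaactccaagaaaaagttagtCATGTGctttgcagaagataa
Tyrp1: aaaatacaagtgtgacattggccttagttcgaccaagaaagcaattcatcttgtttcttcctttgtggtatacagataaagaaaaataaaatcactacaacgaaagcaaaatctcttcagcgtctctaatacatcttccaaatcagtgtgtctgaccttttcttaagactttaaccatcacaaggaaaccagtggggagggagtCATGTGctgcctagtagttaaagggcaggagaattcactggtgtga
Dct: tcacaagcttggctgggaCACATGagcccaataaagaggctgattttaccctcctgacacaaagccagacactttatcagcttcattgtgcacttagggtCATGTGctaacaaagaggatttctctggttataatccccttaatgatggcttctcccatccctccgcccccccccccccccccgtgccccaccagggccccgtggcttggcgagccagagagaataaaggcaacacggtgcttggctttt

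The motif begins 21 bases before the RefSeq start of Tyr, 46 bases before that of Tyrp1, and occurs 2 times before that of Dct, the nearer at 150 bases. GENCODE, whose positions follow, starts Tyrp1 further upstream, so the end of the Tyrp1 window, motif included, lies within the gene as GENCODE gives it. Of 32851 promoter windows of this length, 4025 (12.3%) held the same letters on either strand. A match of letters is a description and shows no binding.

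In the gene annotation (GENCODE M21, GRCm38), Tyr has 5 exons at chr7:87424771-87493512 and a main transcript of 6042 bases, of which 73.5% does not code for protein. Tyrp1 has 8 exons at chr4:80834123-80851719 and Dct has 8 at chr14:118012790-118052244. Pmel has 11 exons at chr10:128704195-128720238 and Mlana has 5 at chr19:29697824-29708634. The longest exact run that Tyr shares with another of the 5 transcripts, on either strand, is 13 bases, and Tyrp1 and Dct share 18. Pmel alone among the 5 overlaps exons of genes in the matrix: its main transcript shares exon bases with Dgka, a diacylglycerol kinase gene expressed in T cells, on the opposite strand. Smart-seq2 does not mark strand, so reads from that stretch cannot be told apart.

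The 5 genes fell into 2 patterns in single cells, which the plot of all 5 genes by cell shows. Tyr was low and nearly everywhere, while Tyrp1, Dct, Pmel and Mlana were undetected in most cells and well above FPKM 10 in a few. Across the kept cells, 6 had Tyrp1 above FPKM 10, 13 had Dct, 14 had Pmel and 6 had Mlana. At the lower level of FPKM 1 the same genes were detected in 8, 14, 22 and 6 cells.

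**Figure D1:**
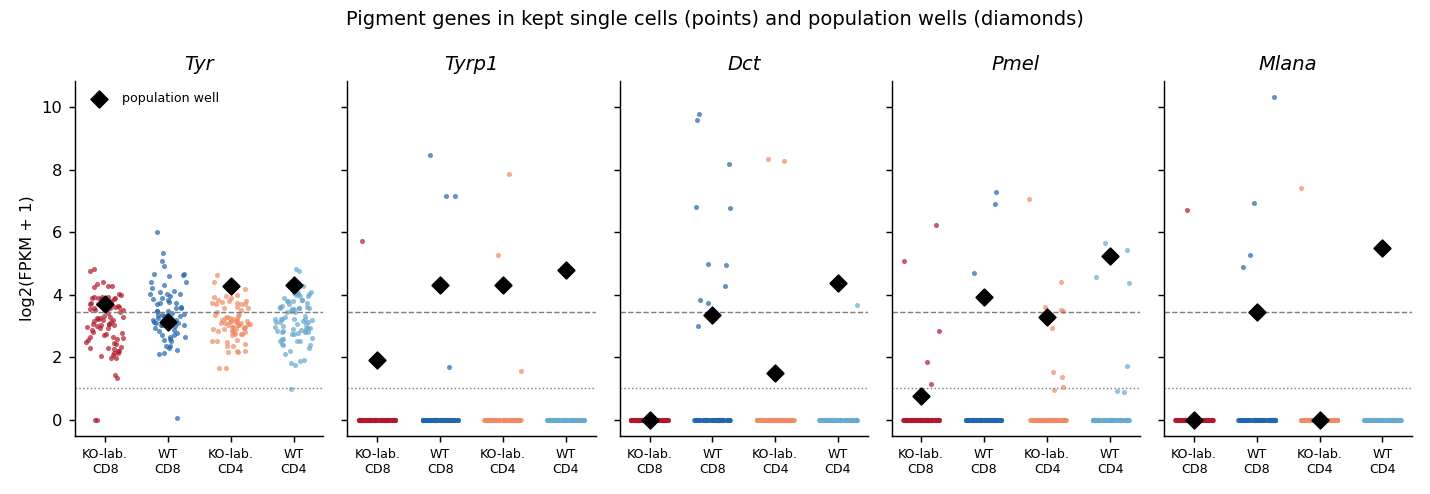
Level of each pigment gene, as log2(FPKM + 1), by plate; points are kept single cells, diamonds are population wells, and the dotted and dashed lines mark FPKM 1 and FPKM 10. Tyr forms a band on every plate (plate medians 7.5 to 9.11 FPKM), and the other genes show scattered cells above a row of cells at 0, reaching 1278 FPKM for Mlana.

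Dct was the gene with the most uneven spread over plates. In KO-labelled CD8 it was listed at 0 in all 80 (the limit set by 3 cells is 3.75%), and in WT CD8 it passed FPKM 10 in 10 of 72 (13.9%, interval 6.87% to 24.06%). Those 10 cells had 12.2, 13.2, 18.5, 29.97, 30.4, 108.9, 111.3, 290.2, 770.7 and 881.8 FPKM. In CD4 cells Dct passed FPKM 10 in 2 of 73 KO-labelled cells, at 308.3 and 320.4 FPKM, and in 1 of 79 WT cells, at 11.7 FPKM. The WT CD8 interval lies above the KO-labelled limit, while the intervals of the CD4 plates overlap. Among the cells that could be matched on genes detected, Dct was also in 0% of KO-labelled and 11.9% of WT CD8 cells.

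Tyrp1 and Mlana, which encode a melanin enzyme and a melanosome membrane protein, were the rarest. Tyrp1 passed FPKM 10 in 1 KO-labelled CD8 cell (51.5 FPKM), in 3 WT CD8 cells (141.1, 142.2 and 354.9 FPKM), in 2 KO-labelled CD4 cells (37.6 and 230.8 FPKM) and in none of the 79 WT CD4 cells. Mlana passed it in 1 KO-labelled CD8 cell (102.9 FPKM), in 4 WT CD8 cells (28.8, 37.96, 120.9 and 1278 FPKM), in 1 KO-labelled CD4 cell (168.5 FPKM) and in none of the WT CD4 cells. The limit that 3 cells set is 3.8% of 79. For both genes the intervals of all 4 plates overlapped.

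Pmel, the gene of the fibril protein, was the most widely spread of the rare members and the lowest in level. It passed FPKM 10 in 2 of 80 KO-labelled CD8 cells (2.50%), 3 of 72 WT CD8 cells (4.17%), 5 of 73 KO-labelled CD4 cells (6.85%) and 4 of 79 WT CD4 cells (5.06%). Its highest values were 74.1 FPKM in KO-labelled CD8, 155.3 FPKM in WT CD8, 131.2 FPKM in KO-labelled CD4 and 49.4 FPKM in WT CD4 cells. The 4 intervals overlapped, from 0.30% at the lowest bound to 15.3% at the highest. Dgka, whose exon it overlaps, was above FPKM 1 in 14 of the 14 cells with Pmel above 10 and in 75.2% of the other 290, with medians of 464.6 and 225.02 FPKM. The part of Dgka reads in the Pmel values was not tested.

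**Figure D2:**
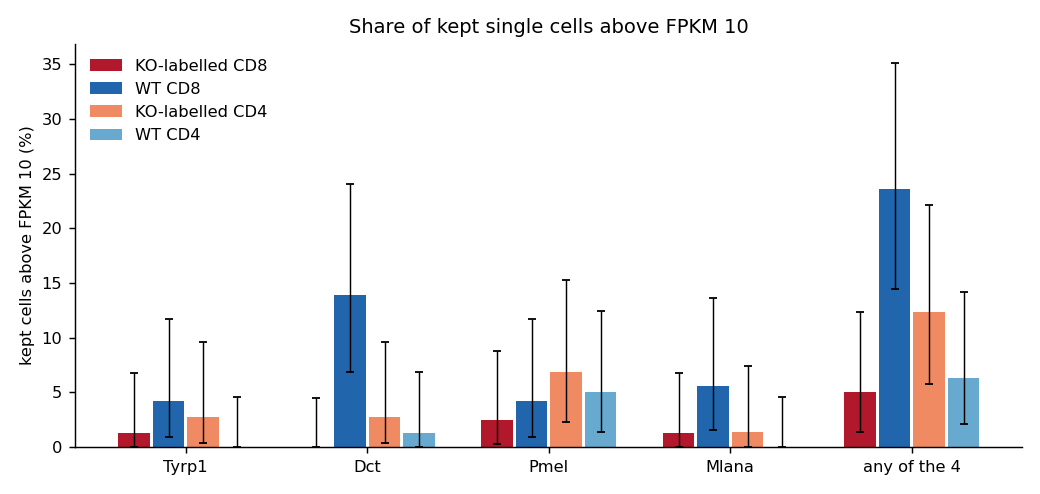
Percent of kept cells above FPKM 10 for Tyrp1, Dct, Pmel, Mlana and any of the 4, by plate; bars are shares and error bars exact 95% intervals for counting error. Dct is at 0% in KO-labelled CD8 and 13.9% in WT CD8 cells, and any of the 4 genes is in 5.00% of KO-labelled and 23.6% of WT CD8 cells.

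A cell with at least 1 of Tyrp1, Dct, Pmel and Mlana above FPKM 10 is called a carrier here. The level did not fall in a wide gap. Of the 4 genes in kept cells, 39 values lay above 10 and 18 of these above 100, while 11 lay between 1 and 10. The highest value under the level was 7.03 FPKM and the lowest above it was 10.2 FPKM. Of the 11 lower values, 8 were of Pmel. KO-labelled CD4 cells S121, S129 and S161 were carriers through Pmel alone, at 10.3, 11.2 and 10.2 FPKM. Among CD8 cells, carriers were 4 of 80 in the KO-labelled plate (5.00%, 95% interval 1.38% to 12.3%) and 17 of 72 in the WT plate (23.6%, interval 14.4% to 35.1%). In CD4 cells they made up 9 of 73 KO-labelled cells (12.3%, interval 5.80% to 22.1%) and 5 of 79 WT cells (6.33%, interval 2.09% to 14.2%). KO-labelled cells held the smaller share in CD8, where the intervals did not overlap, and the larger in CD4, where they did.

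WT CD8 cells also had the most genes detected. KO-labelled cells were matched to WT cells of the same lineage where an unused one lay within 5% in number of genes. In CD8 this kept 42 of 80 KO-labelled and 42 of 72 WT cells, so the matched shares do not cover whole plates. Carriers were 4 of 42 KO-labelled (9.52%) and 6 of 42 WT CD8 cells (14.3%). Thus all 4 KO-labelled CD8 carriers stayed in, and 6 of the 17 WT CD8 carriers. In CD4 the matched share was 8.77% on both plates (5 of 57 each), so the CD4 difference was no longer seen. The part of genes detected in the CD8 difference was not tested further. With Pmel left out, carriers were 2.50% of KO-labelled and 19.4% of WT CD8 cells, and in CD4 the KO-labelled plate had 5.48% and the WT plate 1.27%.

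Most carriers had a single rare pigment gene. Of the 35 carriers, 31 had 1 of the 4 genes above FPKM 10, 4 had 2, and none had 3 or 4. Above FPKM 1, Dct (14 cells) and Mlana (6 cells) shared 3 cells, so Mlana shared 3 of its 6 with Dct. Tyrp1 (8 cells) and Dct shared 2, Tyrp1 and Mlana shared 1, and none of the 22 cells with Pmel had any of the other 3. Genes this rare share few cells even when unrelated, so these counts do not show that the genes avoid each other. No expected count was worked out. Where genes did coincide, levels could be high: WT CD8 cell S43 had Dct at 881.8 and Mlana at 1278 FPKM. WT CD8 cell S7 had Tyrp1 at 141.1 and Dct at 108.9 FPKM, WT CD8 cell S63 had Dct at 290.2 and Mlana at 120.9 FPKM, and KO-labelled CD4 cell S190 had Tyrp1 at 37.6 and Dct at 308.3 FPKM. Tyr in these 4 cells was 23.96, 20.4, 0.04 and 4.88 FPKM, so S63 had almost none beside its Dct and Mlana.

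**Figure D3:**
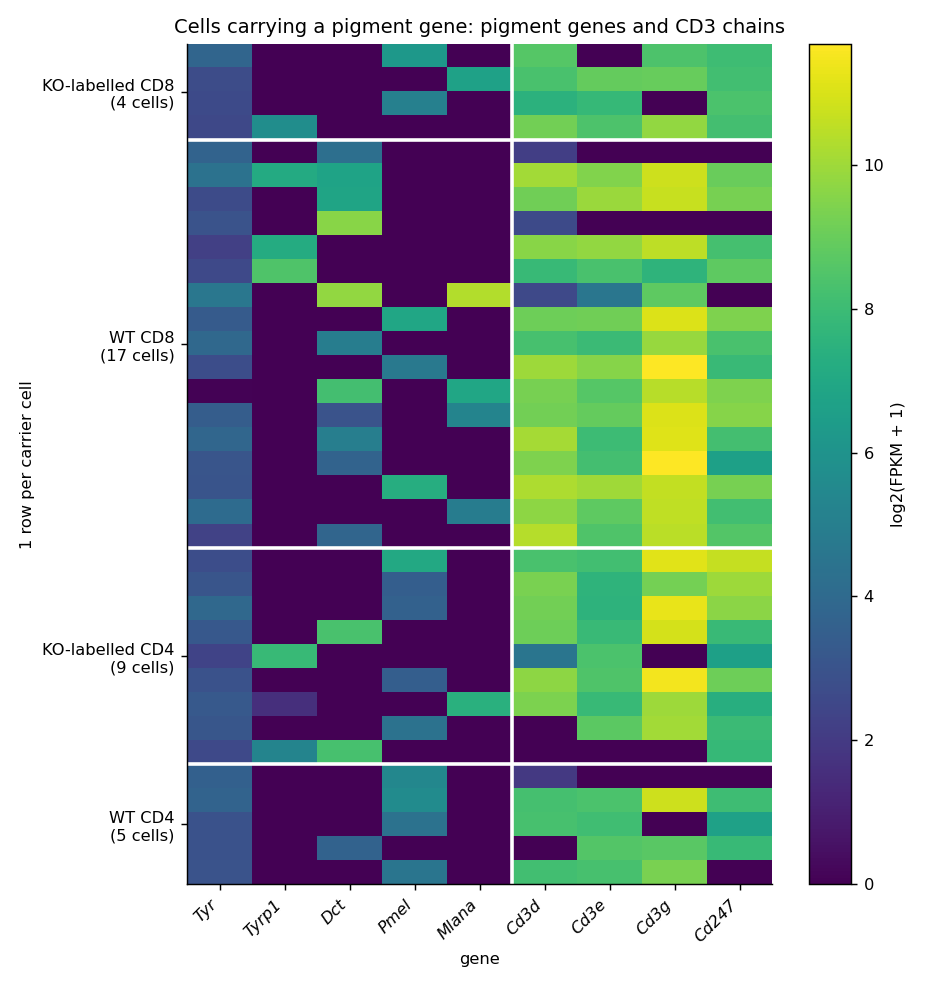
Heat map of the 5 pigment genes and the 4 CD3 chains in the 35 carrier cells, 1 row per cell grouped by plate, coloured by log2(FPKM + 1). Beside Tyr, 31 rows hold 1 pigment gene above FPKM 10 and 4 hold 2, and 32 of the 35 have a CD3 chain above FPKM 10.

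Carriers kept the T cell receptor's CD3 chains, the signalling subunits encoded by Cd3d, Cd3e, Cd3g and Cd247. At least 1 chain was above FPKM 1 in 35 of 35 carriers and in 98.5% of the other cells. Above FPKM 10 the counts were 32 of 35 carriers (91.4%) and 260 others (96.7%). All 4 chains were detected in 2 of 4 carriers and 46.1% of others in KO-labelled CD8, 82.4% and 69.1% in WT CD8, 66.7% and 54.7% in KO-labelled CD4, and 1 of 5 and 56.8% in WT CD4. WT CD4 thus ran against the other plates. Over all plates together, of which WT CD8 gave 17 of the 35 carriers, Cd3d was detected in 91.4% of carriers and 88.5% of others, Cd3e in 85.7% and 91.1%, Cd3g in 28 of 35 and 89.2%, and Cd247 in 85.7% and 65.8%. Of 13 T cell markers, the median above FPKM 1 was 11 in carriers and in others of KO-labelled CD8, 12 and 11 in WT CD8, 11 and 10 in KO-labelled CD4, and 8 and 10 in WT CD4.

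The 3 carriers with no CD3 chain above FPKM 10 had Cd3d alone, at 2.80 to 5.15 FPKM. WT CD8 cell S16 had Dct at 770.7 FPKM, the lowest gene count among carriers (1056) and 3 of the 13 T cell markers. WT CD8 cell S4 had Dct at 18.5 FPKM together with Cd4 at 362.4 FPKM and 5 of 8 dendritic cell markers. WT CD4 cell S303 had Pmel at 41.6 FPKM and 1331 genes. Carriers among cells with a chain above FPKM 10 were 5.06% (KO-labelled CD8), 23.1% (WT CD8), 12.7% (KO-labelled CD4) and 5.19% (WT CD4), close to the shares over all kept cells.

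Carriers had more genes detected than other cells of their plate at the median, with wide overlap. Counting all genes but the 5, the medians were 3135 in carriers and 2494 in others of KO-labelled CD8, and 4211 in carriers and 2957 in others of WT CD8. They were 2708 and 2117 for carriers and others of KO-labelled CD4, and 2121 and 2042 for carriers and others of WT CD4. On every plate the ranges overlapped, for example 1054 to 7012 in carriers and 1070 to 6356 in others of WT CD8. Of the 12 carriers with over 4000 genes, 10 were WT CD8 cells (58.8% of carriers and 29.1% of others there), and in WT CD4 it was 0% of carriers and 5.41% of others. Doublets were not called in these plates.

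The difference was not the same at every level. Among WT CD8 cells with a pigment gene above FPKM 100, the difference in medians from the rest was -245 genes, and in WT CD4 cells with one above FPKM 1 it was -96 genes. Rare genes in general went with more genes detected: of 1757 other genes above FPKM 10 in 6 to 14 kept cells, 80.7% had a higher median in the cells that carried them, by a median of 412 genes (quartiles 82 and 1171) after centring on each plate's median. On that scale the difference was 849 genes for Tyrp1, 145.25 for Pmel and 1432 for Mlana. Mlana lay above the upper quartile of these other genes, and Tyrp1, Dct and Pmel lay between the quartiles.

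**Figure D4:**
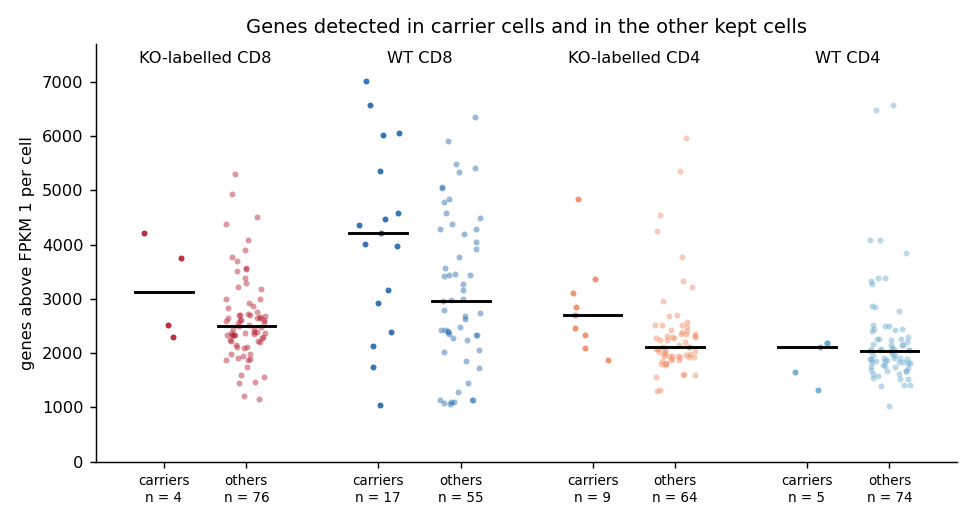
Genes detected above FPKM 1 (the 5 pigment genes left out) in carriers and in other kept cells of each plate, 1 point per cell with the median as a bar. Carriers sit higher at the median on all 4 plates, by 79 genes in WT CD4 to 1254 in WT CD8, and the ranges overlap.

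Other melanocyte genes were looked for in the same cells. Of a list of 28, 27 were in the matrix, and at least 3 were above FPKM 1 in 13 of 35 carriers (37.1%) and 31 others (11.5%). By plate these were 1 of 4 carriers and 3.95% of others in KO-labelled CD8, 58.8% and 34.5% in WT CD8, 22.2% and 3.13% in KO-labelled CD4, and 0% and 9.46% in WT CD4, where the direction was the other way. At FPKM 10 the pooled shares were 14.3% and 5.20%. Pooled over plates, the summed level ran over 0.69 to 5137 FPKM in carriers (median 117.9) and over 0 to 72184 FPKM in others (median 9.89). WT CD8, with 17 of the 35 carriers, had medians of 212.2 FPKM in carriers and 113.3 FPKM in others. The medians were 4.2 and 2.42 FPKM in KO-labelled CD8, 38.6 and 7.28 FPKM in KO-labelled CD4, and 64.1 and 7.4 FPKM in WT CD4. Apoe alone reached 71942 FPKM among others. Mitf, the regulator itself, was above FPKM 1 in 1 carrier and 3 others, Sox10, a neural crest factor, in 1 carrier and 0 others, and Pax3, another, in 1 carrier and 1 other. Slc45a2, Gpr143, Ednrb, Rab38, Mcam, Cspg4, S100b and Fabp7 were at 0 in every carrier and above FPKM 1 in at most 3 other cells each. Oca2 was above FPKM 1 in 1 carrier and 0 others. Apoe and Cd63, which are also known in other cells, were in 17.1% and 14.3% of carriers and in 7.06% and 2.97% of others. Of further genes of the list, Erbb3 was in 14.3% of carriers and 4.46% of others, Trpm1 in 11.4% and 4.46%, and Gpnmb in 8.57% and 1.86%. These shares are pooled over plates. The listed genes found in at least 20% of carriers were Rab27a, a vesicle transport gene that T cells also use (62.9% of carriers and 44.6% of others), and Slc24a5, a melanosome ion exchanger (31.4% and 21.6%).

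Cells with several markers of another cell type were few in both sets, although single listed markers were not rare. Xcr1 was above FPKM 1 in 28.6% of carriers, with a median of 0.45 FPKM there, and in 39.03% of others. Eomes, from the NK cell list, was in 25.7% and 14.5%. It was in 12 KO-labelled CD8, 35 WT CD8 and 1 WT CD4 cells, so here it followed the CD8 label. At least 3 of 9 macrophage markers were found in 1 carrier (2.86%) and 5 others (1.86%). The single carrier was KO-labelled CD4 cell S149, which had Tyrp1 at 230.8 FPKM and 7 of the 9 markers. Csf1r and Cd14 were at 0 in all carriers, and above FPKM 1 in only 4 and 3 others. The remaining macrophage markers were each in a larger share of carriers, pooled over plates. They ran from C1qb (2.86% of carriers and 2.23% of others) to Cd68 (17.1% and 3.72%). At least 3 of 8 dendritic markers were found in 4 carriers (11.4%) and 11 others (4.09%), pooled over plates. By plate these were 11.8% of carriers and 9.09% of others in WT CD8, and 22.2% and 3.13% in KO-labelled CD4. The direction was the other way in KO-labelled CD8 (0% and 2.63%) and in WT CD4 (0% and 2.70%). Clec9a was at 0 in all carriers and all others, and Batf3 at 0 in all carriers and above FPKM 1 in 3 others. H2-Ab1 was above FPKM 1 in 14.3% of carriers and 5.95% of others, and H2-Aa in 14.3% and 5.58%. Itgax, Flt3 and Cd74 were also in a larger share of carriers, and Xcr1 in a smaller one. The shares of single dendritic markers are pooled over plates. No carrier had 3 or more of the B cell, NK cell, fibroblast and endothelial, or erythroid markers. The part of such cells in the pigment values was not tested.

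The 10 genes with the largest mean difference between carriers and other cells of a plate, on log2(FPKM + 1), were Mrps18c (2.88), Bop1 (2.80), Daxx (2.70), Zc3h11a (2.53), Fh1 (2.46), Copz1 (2.44), Ppme1 (2.43), Mcm2 (2.40), Tspan31 (2.39) and BC029722 (2.37). Each plate had equal weight, so the 4 KO-labelled CD8 carriers counted as much as the 17 WT CD8 carriers. In KO-labelled CD8 alone the difference was 6.82 for Mrps18c and 6.21 for Bop1. It was below 0 on a plate for Bop1 (-0.16, WT CD4), Copz1 (-0.50, KO-labelled CD4) and BC029722 (-0.45, WT CD8). The median over 6709 genes was 0.33, and none of the 10 was on the melanocyte list. Mcm2 is a DNA replication helicase subunit and Bop1 a ribosome assembly factor. Carriers also had more genes detected at the median. The part of this in the median of 0.33 and in the melanocyte gene counts was not tested.

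Tyr, the pathway's first enzyme, behaved otherwise. Values over FPKM 1 were found in 78 of 80 KO-labelled CD8 cells (97.5%), 71 of 72 WT CD8 cells (98.6%), 73 of 73 KO-labelled CD4 cells (100%) and 78 of 79 WT CD4 cells (98.7%). Its lowest, median and highest values were 0, 7.99 and 27.2 FPKM in KO-labelled CD8, 0.04, 9.11 and 62.7 FPKM in WT CD8, 2.11, 7.5 and 23.6 FPKM in KO-labelled CD4, and 0.98, 8.21 and 27.3 FPKM in WT CD4 cells. The 4 ranges overlapped. At the higher level of FPKM 10 the shares were 37.5% (KO-labelled CD8), 43.1% (WT CD8), 27.4% (KO-labelled CD4) and 37.97% (WT CD4), with overlapping intervals. These shares depend on the scaling: with each library rescaled to the same sum they were 50%, 47.2%, 49.3% and 62.03% in the same order, and WT CD8 turned from the highest to the lowest. A median of about 26.8 estimated reads lay behind a value, if the main transcript of 6042 bases is taken as the length.

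Tyr was the most even of the widely detected genes at its level. Its coefficient of variation over the kept cells was 0.66. Of 82 genes above FPKM 1 in at least 95% of kept cells, 17, Tyr included, had a median within 2-fold of that of Tyr, and Tyr varied least of these, against a median coefficient of 2.09. The next were A330032B11Rik (0.75), Cxcr2 (0.91), Gm15645 (0.95), Tnfrsf10b (1.54) and Tmem69 (1.85). Tyr did not follow the other pigment genes: its median was 7.15 FPKM in carriers and 8.21 FPKM in other cells, and its correlation on log2(FPKM + 1) over all kept cells was between -0.08 and 0.01 with each of the 4.

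**Figure D5:**
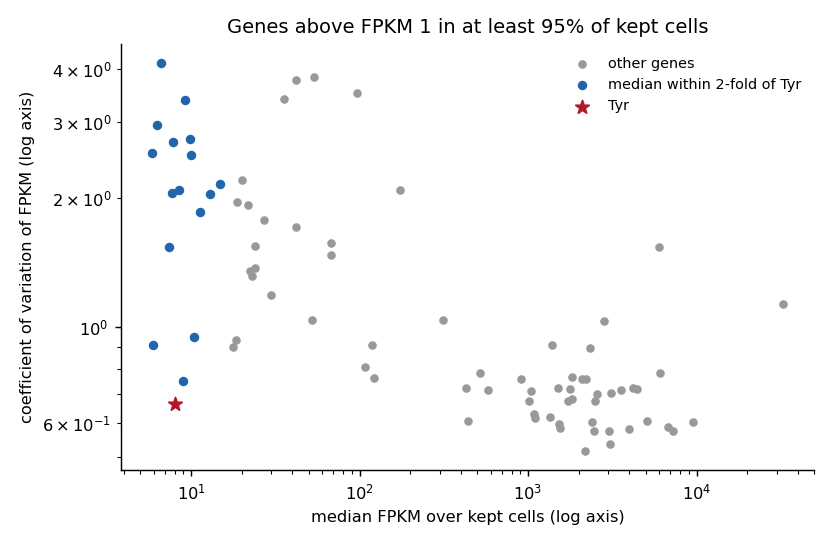
Coefficient of variation against median FPKM over kept cells (both log axes) for the 82 genes above FPKM 1 in at least 95% of kept cells; blue points have a median within 2-fold of that of Tyr and the star is Tyr. Tyr, at 0.66, is the lowest of the 17 genes at its level.

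The genes most like each member were found by Pearson's r on log2(FPKM + 1) over kept cells, among 10975 genes; the cells come from 4 plates and differ in depth. For Tyr they were Slc7a2 (0.44), 2310010M20Rik (0.40), Snhg11 (0.39), Ctcfl (0.38) and Zfp11 (0.38). For Tyrp1 they were Slc12a2 (0.39), Vat1 (0.38), Armc6 (0.37), Cep170b (0.31) and Hist1h3b (0.31). For Dct they were Gm10408 (0.43), Ube2o (0.33), Kmo (0.32), Rgs8 (0.31) and Gm11696 (0.30), and for Pmel Slc36a4 (0.31), Myo16 (0.29), Cep78 (0.29), Bet1 (0.27) and Eml4 (0.27). Mlana, in fewer cells than the others, was nearest to Pycr1 (0.41), Suv39h2 (0.40), Trim56 (0.39), Dct (0.39) and Slc9a8 (0.35). Mlana itself was in too few cells to enter the lists of the others, and in such sparse values all of these are descriptions.

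The population wells gave a second view of the plates. In these wells fewer cells of a type and less RNA per cell cannot be told apart, and each well is 1 library with no replicate. In CD8 wells, Tyrp1 had 2.76 FPKM in KO-labelled and 18.7 FPKM in WT, Dct was listed at 0 in KO-labelled and had 9.17 FPKM in WT, Pmel had 0.70 FPKM in KO-labelled and 14.1 FPKM in WT, and Mlana was listed at 0 in KO-labelled and had 10 FPKM in WT. In CD4 wells, Tyrp1 had 18.9 FPKM in KO-labelled and 26.6 FPKM in WT, Dct 1.82 and 19.6 FPKM, Pmel 8.69 and 36.9 FPKM, and Mlana 0 and 44.04 FPKM. All 4 were lower in the KO-labelled CD8 well by 2-fold or more on log2(FPKM + 1), beside 16.8% of 11875 genes tested. Genes were tested when above FPKM 1 in either well. In CD8, Dct, Mlana (both at 0) and Pmel (0.70 FPKM) were under that level in the KO-labelled well. They entered through the WT well alone and had to be lower, and so did Mlana in CD4. Without this filter the share of genes lower by 2-fold or more was 8.54% in CD8 and 8.22% in CD4. In CD4 wells 3 of the 4 were lower by 2-fold or more, beside 16.4% of 11746 genes, with Tyrp1 (-0.47) short of 2-fold. None of the 4 was higher by 2-fold or more in a KO-labelled well, beside 18.6% of genes in CD8 and 19.9% in CD4 wells. Tyr had 12.1 FPKM in the KO-labelled and 7.73 FPKM in the WT CD8 well, and 18.6 and 18.9 FPKM in the KO-labelled and WT CD4 wells.

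Wells and cells did not give the same order. The 4 rare genes summed to 3.46 FPKM in the KO-labelled CD8 well and to a mean of 3.39 FPKM in its kept cells, and to 51.9 and 64.98 FPKM for WT CD8. For KO-labelled CD4 the sums were 29.4 FPKM in the well and 17.3 FPKM in cells. The WT CD4 well had 127.2 FPKM, the highest of the 4, while its kept cells had a mean of 1.89 FPKM, the lowest, with Tyrp1 and Mlana listed at 0 in all 79. That low mean depends on the cell filter: over all 94 cells the mean was 48.2 FPKM, nearly all of it from S313, a cell of 493 genes with Pmel at 4379 FPKM. The other means over 94 cells were 2.89 FPKM (KO-labelled CD8), 135.8 FPKM (WT CD8) and 13.4 FPKM (KO-labelled CD4). The means of kept cells rested on few: the highest cell held 37.9% of the total in KO-labelled CD8, 46.2% in WT CD8, 27.4% in KO-labelled CD4 and 33.1% in WT CD4 cells.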

How the data were processed

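Single T cells and population wells from 4 plates were analysed from 1 matrix of 23420 gene symbols in 380 columns, of which 0 were unmapped. Per the submitters' processing notes, the tools named are RSEM and Bowtie with mm10; versions are not given in the sources used here. The values are FPKM, which the authors deposited after scaling between libraries by TMM factors; depth was therefore estimated from the step that 1 read makes in low values. In simulated libraries of 10240 genes the ratio of estimated to true depth had a median of 0.894. The ratio was within 1.5-fold of that median in 100% of libraries. These simulated libraries had single reads planted in genes at 0 and no TMM scaling. The check therefore does not cover the scaling of the deposited values, which shifts the estimate of each library, and estimated reads are approximate.

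Cells with at least 1000 genes above FPKM 1 were kept. Log values are log2(FPKM + 1). Shares have exact Clopper-Pearson intervals at 95%, and beside a share of 0 stands the limit allowed by 3 cells. Replicates and tests between groups were not possible with 1 plate per group, and cells are not replicates. The members and gene lists were chosen with earlier results of these data known. Genes named are the 5 members, the CD3 chains, melanocyte genes in at least 20% of carriers, the 5 genes most correlated with each member (among genes in at least 2% of kept cells), the 10 largest carrier differences, and the 5 least variable genes at the level of Tyr. Single pigment or marker genes outside these rules, and cells given by number, were chosen after their values were seen. Alternatives changed the cell filter, the level, the scaling, the pseudocount (0.1) and the cells compared. Gene positions come from GENCODE M21 and promoters from RefSeq. Python 3.11.15, numpy 2.4.6, pandas 2.3.3, scipy 1.17.1 and matplotlib 3.10.9 were used.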

Additional observations from a re-analysis of the deposited data

Results flagged for a closer look

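The share of carriers, KO-labelled minus WT, was -18.6 percentage points in CD8 cells and 6.00 points in CD4 cells, so the 2 lineages differ in direction. The same held for each of the 4 rare genes above FPKM 10: Tyrp1 had -2.92 points in CD8 and 2.74 in CD4, Dct -13.9 and 1.47, Pmel -1.67 and 1.79, and Mlana -4.31 and 1.37. The difference between lineages was not tested, since each group is 1 plate, and most of these counts are of 5 cells or fewer. Matched on genes detected, the opposite directions were not kept by carriers or by Tyrp1 and Dct. In CD4, carriers were 8.77% and Dct 1.75% in both genotypes, and in CD8 Tyrp1 was 2.38% in both. For Pmel the lineages still went in opposite directions, but each was reversed. Pmel was at 4.76% (KO-labelled) and 0% (WT) in CD8, and at 5.26% (KO-labelled) and 7.02% (WT) in CD4. With cells above 4000 genes left out, Pmel in CD8 was at 2.70% (KO-labelled) and 0% (WT).

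Cells left out by the gene filter also carried pigment genes. Carriers were 4 of these 72 cells (5.56%, interval 1.53% to 13.6%), with 0 of 14 KO-labelled CD8, 3 of 22 WT CD8, 0 of 21 KO-labelled CD4 and 1 of 15 WT CD4 cells. WT CD8 cell S35 had Dct at 3241 and Pmel at 3907 FPKM. WT CD4 cell S313, with 493 genes and no CD3 chain, had Pmel at 4379 FPKM. WT CD8 cell S8 had Mlana at 395.9 and Dct at 69.7 FPKM, and WT CD8 cell S61 had Mlana at 471.7 FPKM. S35 and S8 thus each held 2 of the genes above FPKM 10.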

How the results depend on the processing

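No paired analysis was possible because no test was run and the library numbers in the titles are unique to each plate. Leaving out replicates was not possible with 1 plate per group. For carriers, the alternatives of rescaled values, only cells with a CD3 chain, and Pmel left out were chosen after seeing the data. Tyr above FPKM 1 fell without the cell filter to 88.3% (KO-labelled CD8), 89.4% (WT CD8), 82.98% (KO-labelled CD4) and 91.5% (WT CD4), and at a level of FPKM 5 to 73.8%, 86.1%, 82.2% and 79.7% in the same order. It was 100% in WT CD4 cells with at least 2000 genes, matched on genes or rescaled. Carriers with 2 genes or more were 0%, 4.17%, 1.37% and 0% of the same plates. Above FPKM 100, carriers were 1.25% of KO-labelled CD8, 12.5% of WT CD8, 6.85% of KO-labelled CD4 and 0% of WT CD4 cells. WT CD8 carriers were 14.3% after matching, and without Pmel the CD4 shares were 5.48% (KO-labelled) and 1.27% (WT).

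Genes detected, carriers minus others, turned to -245 in WT CD8 both above FPKM 100 and with 2 genes or more, to -137.5 in KO-labelled CD4 with 2 genes or more, and in WT CD4 to -96.0 at FPKM 1 and -13.0 without the cell filter. In KO-labelled CD8 above FPKM 100 it was 1714, from 1 cell. The share with at least 3 melanocyte genes at FPKM 10 was 14.3% of carriers and 5.20% of others. The causes were not tested. Beyond these, 9 shares of single genes moved past their intervals: Tyr above FPKM 10 on 3 plates when rescaled, and Pmel in WT CD8 and Mlana in KO-labelled CD8 cells, which fell to 0% under settings that leave out cells with many genes. The well differences kept their sign and side of 2-fold, but with a pseudocount of 0.1 those of genes at 0 grew, to -6.53 for Dct and -6.66 for Mlana in CD8 and -8.79 for Mlana in CD4, against -3.35, -3.46 and -5.49. Low levels are limited by depth: the 2.76 FPKM of Tyrp1 in the KO-labelled CD8 well stand for about 5.37 estimated reads. In the WT CD8 well, the 10 FPKM of Mlana stand for about 4.27 estimated reads and the 9.17 FPKM of Dct for about 9.52. The CD8 well differences of these genes thus rest on few reads.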

Other observations

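The 5 cells with the highest Tyr were WT CD8 cells S25 (62.7 FPKM), S42 (39.4 FPKM), S93 (32.7 FPKM) and S44 (28.98 FPKM) and WT CD4 cell S294 (27.3 FPKM). They had 1294 to 1855 genes above FPKM 1, and none was a carrier of Tyrp1, Dct, Pmel or Mlana. In cells left out by the gene filter Tyr was above FPKM 1 in 31 of 72 (43.1%), with a median of 0.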
